A study of Homo sapiens with 6 samples.

Results

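Metallothioneins are small cysteine-rich proteins that bind zinc, copper and cadmium and so hold these metals in the cell. Their genes are switched on when zinc rises, through the zinc-sensing transcription factor MTF1, which binds short metal response elements in their promoters, and glucocorticoids and oxidative stress can also induce them. The human MT1 and MT2 genes lie side by side on chromosome 16 and code for nearly the same protein.

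The 6 genes described here are MT1E, MT1F, MT1G, MT1H, MT1X and MT2A, all 6 of which were among the 16199 genes of the count table. MT1H was selected on its higher level in homozygous cells in these data, and the other 5 were taken because they belong to the same cluster. The values of MT1H in homozygous cells are therefore given as a description with no test. The other 5 moved with MT1H across these libraries, so their values are not independent of this choice. The table also held 4 of the 15 other listed metallothionein genes and pseudogenes, namely MT1A, MT1M, MT1L and MT1JP, and the other 11 are not analysed here.

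RNA was sequenced from H1, an established line of human embryonic stem cells, with 2 libraries for each of 3 genotypes. The groups were cells homozygous for Dicer-S1344L, cells hemizygous for Dicer-S1344L, and wild-type H1 cells. S1344L is a cancer hotspot change in DICER1, the enzyme that cuts microRNA precursors, and both edited groups were made with CRISPR-Cas9. The labels give no metal or hormone treatment and do not say how many clones or cultures stand behind a genotype, so the p-values measure only the spread between these libraries.

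The listed counts summed to between 38164848 and 52924532 per library. Hemizygous 1 and wild type 1 stood apart from the other 4 libraries on the first principal component, at -34.7 and -29.8 against 2.48 to 25.0, and this component held 61.7% of the variance. All 10 listed pluripotency markers were present, with a summed level of 7974 to 9329 CPM (a gene's count scaled to a common library size, with TMM, the trimmed mean of M-values, as scaling factor) in the 6 libraries. The defining endoderm genes SOX17 and FOXA2 and the trophoblast genes CDX2 and GATA3 were not among the genes of the table, while KRT7, the 1 of 7 trophoblast and amnion markers present, was at 6.35 to 10.5 CPM in the 6 libraries.

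The coding sequences show how alike the members are. MT1H (chr16:56669814-56671129, plus strand, GRCh38), the member that was picked, is shown with its neighbour MT1G (chr16:56666731-56668065, minus strand), the member with the highest level, and with MT2A (chr16:56608199-56609497, plus strand), the one MT2 gene. Each runs from the start to the stop codon, read 5′ to 3′ from GENCODE release 29, and capitals mark the in-frame codons for cysteine, the residue that binds the metal.
MT1H: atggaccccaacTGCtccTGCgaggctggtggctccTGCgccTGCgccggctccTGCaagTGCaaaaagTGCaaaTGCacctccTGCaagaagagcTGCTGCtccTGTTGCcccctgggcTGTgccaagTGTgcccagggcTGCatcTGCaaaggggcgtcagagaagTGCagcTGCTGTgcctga
MT1G: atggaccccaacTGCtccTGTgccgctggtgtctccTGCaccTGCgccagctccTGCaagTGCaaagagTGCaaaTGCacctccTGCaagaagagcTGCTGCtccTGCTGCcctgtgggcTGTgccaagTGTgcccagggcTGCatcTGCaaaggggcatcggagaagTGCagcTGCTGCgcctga
MT2A: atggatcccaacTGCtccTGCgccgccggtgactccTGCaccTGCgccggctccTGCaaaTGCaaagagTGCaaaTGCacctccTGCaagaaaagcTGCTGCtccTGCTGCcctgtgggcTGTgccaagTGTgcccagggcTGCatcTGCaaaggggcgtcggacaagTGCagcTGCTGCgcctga

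All 6 coding sequences had 186 bases in 3 exons and held 20 cysteine codons among 61, which is 32.8%. Over the 15 pairs of members the coding sequences were identical at 88.7% to 95.2% of positions, least between MT1F and MT1X and most between MT1G and MT2A. MT1H and MT1G were identical at 93.0%. Over the whole principal transcript, untranslated parts included, the share of a member's 50-base windows that also occurred exactly in a transcript of another gene was 3.59% for MT1F, 4.88% for MT2A, 5.34% for MT1E, 20.2% for MT1G, 20.4% for MT1H and 45.1% for MT1X. For 100-base windows it was 0% for MT1E, MT1F, MT1G and MT2A, 3.36% for MT1H, shared with the retrogene MT1HL1, and 19.1% for MT1X, shared with the overlapping gene AC026461.1. How reads that fit several copies were counted is not given in the sources used here, and the kit does not mark strand, so the split of counts between members, and that of MT1X most of all, is uncertain.

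Of the 6 members, only MT1H, MT1X and MT2A had a match in the RefSeq promoter table (GRCh38.p14), so the promoters of MT1E, MT1F and MT1G were not searched. The 3 matched promoters are shown because the metal response elements they carry are what ties the family to zinc. The bases upstream of the start site were searched on both strands for the core of this element, TGCACNC or TGCGCNC, and capitals mark each match. For MT1H all 250 bases are shown (chr16:56669564-56669813, plus strand), for MT1X the 204 bases before its first annotated exon (chr16:56682220-56682423, plus strand), and for MT2A, whose upstream bases lie inside an annotated exon, a single 30-base stretch that ends at the start site (chr16:56608554-56608583, plus strand).
MT1H promoter: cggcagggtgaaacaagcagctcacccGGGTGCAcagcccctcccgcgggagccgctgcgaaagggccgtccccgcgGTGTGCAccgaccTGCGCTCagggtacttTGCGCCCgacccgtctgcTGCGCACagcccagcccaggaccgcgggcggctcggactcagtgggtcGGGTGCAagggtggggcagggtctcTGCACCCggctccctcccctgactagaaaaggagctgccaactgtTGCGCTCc
MT1X promoter: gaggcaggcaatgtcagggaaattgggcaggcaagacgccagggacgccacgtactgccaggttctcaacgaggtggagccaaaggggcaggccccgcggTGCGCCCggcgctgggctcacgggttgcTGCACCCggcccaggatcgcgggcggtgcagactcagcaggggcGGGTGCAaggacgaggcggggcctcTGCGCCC
MT2A promoter, last 30 bases: ctataaacactgcttgccgcgcTGCACTCc

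In the 250 bases before the start site the element core occurred 8 times at MT1H (5 forward and 3 reverse), 7 times at MT2A (5 forward and 2 reverse) and 4 times at MT1X (3 forward and 1 reverse), and no match overlapped another. Of 35116 promoters of the same length, 24.8% held at least 1 match, 0.37% at least 4, 0.0313% at least 7 and 0.0171% at least 8. The match nearest to the start site began 8 bases before it at both MT1H and MT2A, and MT1H, MT2A and MT1X each had a match that began 53 or 54 bases before it. A match to these letters does not show that MTF1 was bound.

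Together the 6 genes were highest in homozygous cells, but the 2 hemizygous libraries, and the 2 wild-type libraries, differed from each other by more than the genotype means did. Their summed level was 479.7 and 556.5 CPM in homozygous 1 and 2, 277.8 and 509.3 CPM in hemizygous 1 and 2, and 208.7 and 425.5 CPM in wild type 1 and 2. Both homozygous libraries lay above both wild-type libraries in this sum, while hemizygous 2 lay above homozygous 1 and hemizygous 1 below wild type 2. Fewer cells that express a gene and less RNA per cell cannot be told apart in such bulk samples.

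MT1H had 63.1 and 66.7 CPM in homozygous 1 and 2, 35.4 and 63.0 CPM in hemizygous 1 and 2, and 19.96 and 41.4 CPM in wild type 1 and 2. The homozygous libraries were close to each other and above both wild-type libraries. MT1G had 162.9 and 197.9 CPM in homozygous, 91.7 and 176.3 CPM in hemizygous, and 69.8 and 147.5 CPM in wild-type libraries. MT2A, the form that is often the most abundant in adult tissues, had 77.9 and 69.3 CPM in homozygous, 36.7 and 73.6 CPM in hemizygous, and 30.7 and 56.3 CPM in wild-type libraries. In both genes the homozygous libraries stood above both wild-type libraries, and hemizygous 1 stood nearer to wild type 1 than to the other 4.

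MT1X had 50.5 and 59.2 CPM in homozygous, 29.9 and 47.6 CPM in hemizygous, and 25.2 and 47.1 CPM in wild-type libraries, so homozygous 1 lay only a little above wild type 2. MT1E had 78.2 and 103.4 CPM in homozygous, 51.7 and 93.5 CPM in hemizygous, and 35.8 and 82.2 CPM in wild-type libraries. MT1F had 47.2 and 59.9 CPM in homozygous, 32.3 and 55.4 CPM in hemizygous, and 27.3 and 50.9 CPM in wild-type libraries. For MT1E and MT1F, homozygous 1 was below wild type 2, and the 3 genotypes overlapped.

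**Figure D1:**
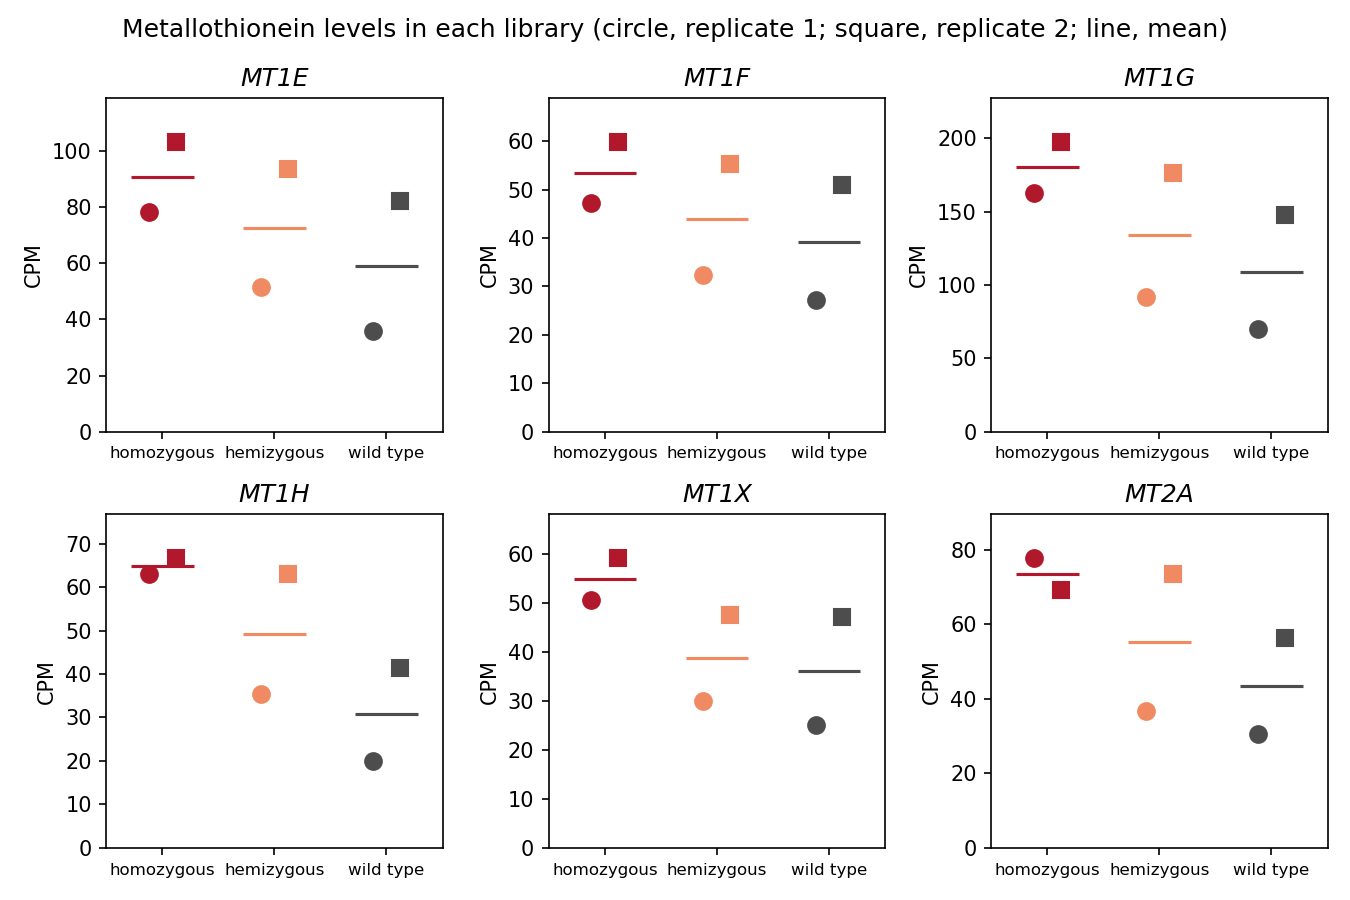
Level of each metallothionein gene in CPM (y axis, from 0) in homozygous, hemizygous and wild-type cells (x axis). Each point is 1 library (circle, replicate 1; square, replicate 2) and each line is the mean of 2 libraries. Wild type 1 is the lowest library for all 6 genes and hemizygous 1 the second lowest.

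Against wild type, all 6 genes had higher means in homozygous cells, and the edgeR quasi-likelihood test called none of the 5 that were tested. It called 0 of 16199 genes at an adjusted p under 0.05 (0%), and 192 genes were higher at an unadjusted p under 0.05 (1.19%), none of them among those 5 members; DESeq2, another count test, called 10 genes and no member. Log2 fold changes were 0.76 ± 0.39 (SE) for MT2A, 0.73 ± 0.42 for MT1G, 0.62 ± 0.43 for MT1E, 0.60 ± 0.34 for MT1X and 0.45 ± 0.36 for MT1F, with edgeR adjusted p = 1.00 for each and unadjusted p from 0.0912 to 0.247. For MT1H the log2 fold change was 1.08 ± 0.39 (SE), a 2.12-fold difference between mean levels of 64.9 ± 2.60 CPM over the homozygous libraries and 30.7 ± 15.2 CPM over the wild-type libraries (SD, n = 2 each), given as a description since this difference chose it. Both homozygous libraries exceeded both wild-type libraries for 3 of the 5 tested members (MT1G, MT1X and MT2A), where 14.2% of all genes did so. The median of the 5 members other than MT1H was 0.62 on the log2 scale, where that of all genes was 0.00. The members moved together across these libraries (Pearson r from 0.905 to 0.992 over the 15 pairs). The 5 are therefore not independent of the choice of MT1H, and their comparison with all genes is a description. With MT1H, which the choice of members puts high, the median was 0.68. This median of 6 was 0.26 without wild type 1 and 1.32 without wild type 2, so the size rests on which wild-type library is used.

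Against wild type, hemizygous cells had higher means for all 6 genes, by less than the 2 libraries of a genotype differed. Hemizygous 1 was above wild type 1 and hemizygous 2 above wild type 2 for all 6 genes, though the labels do not say that a replicate number pairs libraries. For MT1X the values in hemizygous 2 and wild type 2 were close, at 47.6 and 47.1 CPM. The share of all genes with this order was not counted, and the 6 genes moved together, so they are not separate observations. MT1H averaged 49.2 ± 19.5 CPM over the hemizygous libraries and 30.7 ± 15.2 CPM over the wild-type libraries (SD, n = 2 each), with a log2 fold change of 0.68 ± 0.39 (SE) and an edgeR adjusted p of 1.00. The other 5 members had log2 fold changes of 0.35 for MT2A, 0.30 for MT1G, 0.30 for MT1E, 0.17 for MT1F and 0.10 for MT1X. The edgeR test called 0 of the 6 members and 0% of all genes, and DESeq2 called 7 genes and no member. At an unadjusted p under 0.05, 0 members and 0.457% of all genes were higher, and the hemizygous libraries exceeded both wild-type libraries in 0 of the 6 members and 8.13% of all genes. The median was 0.30 both with and without MT1H (0.00 for all genes). With MT1H it was -0.24 without hemizygous 2 and -0.15 without wild type 1, and in both of those fits only MT1H stayed above 0. It was 0.69 without hemizygous 1 and 0.91 without wild type 2. This comparison shares its wild-type libraries with the one that chose MT1H.

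Between the edited genotypes, the 6 means were again higher in homozygous cells, and edgeR called none. Log2 fold changes of homozygous over hemizygous cells were 0.50 ± 0.33 (SE) for MT1X, 0.43 ± 0.41 for MT1G, 0.41 ± 0.38 for MT2A, 0.32 ± 0.43 for MT1E and 0.29 ± 0.36 for MT1F, with edgeR adjusted p = 0.999 for each, and 0.40 ± 0.38 for MT1H, which has no test here. Of all genes 0% were called (10 genes and no member by DESeq2), and 0.401% were higher at an unadjusted p under 0.05, none of them among the 5 tested members. The homozygous libraries exceeded both hemizygous libraries in 1 of those 5, MT1X, and in 11% of all genes. The median of the 5 members other than MT1H, which are not independent of its choice, was 0.41 (0.00 for all genes). With MT1H it was also 0.41, and it was 0.02 without hemizygous 1 and 0.87 without hemizygous 2.

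**Figure D2:**
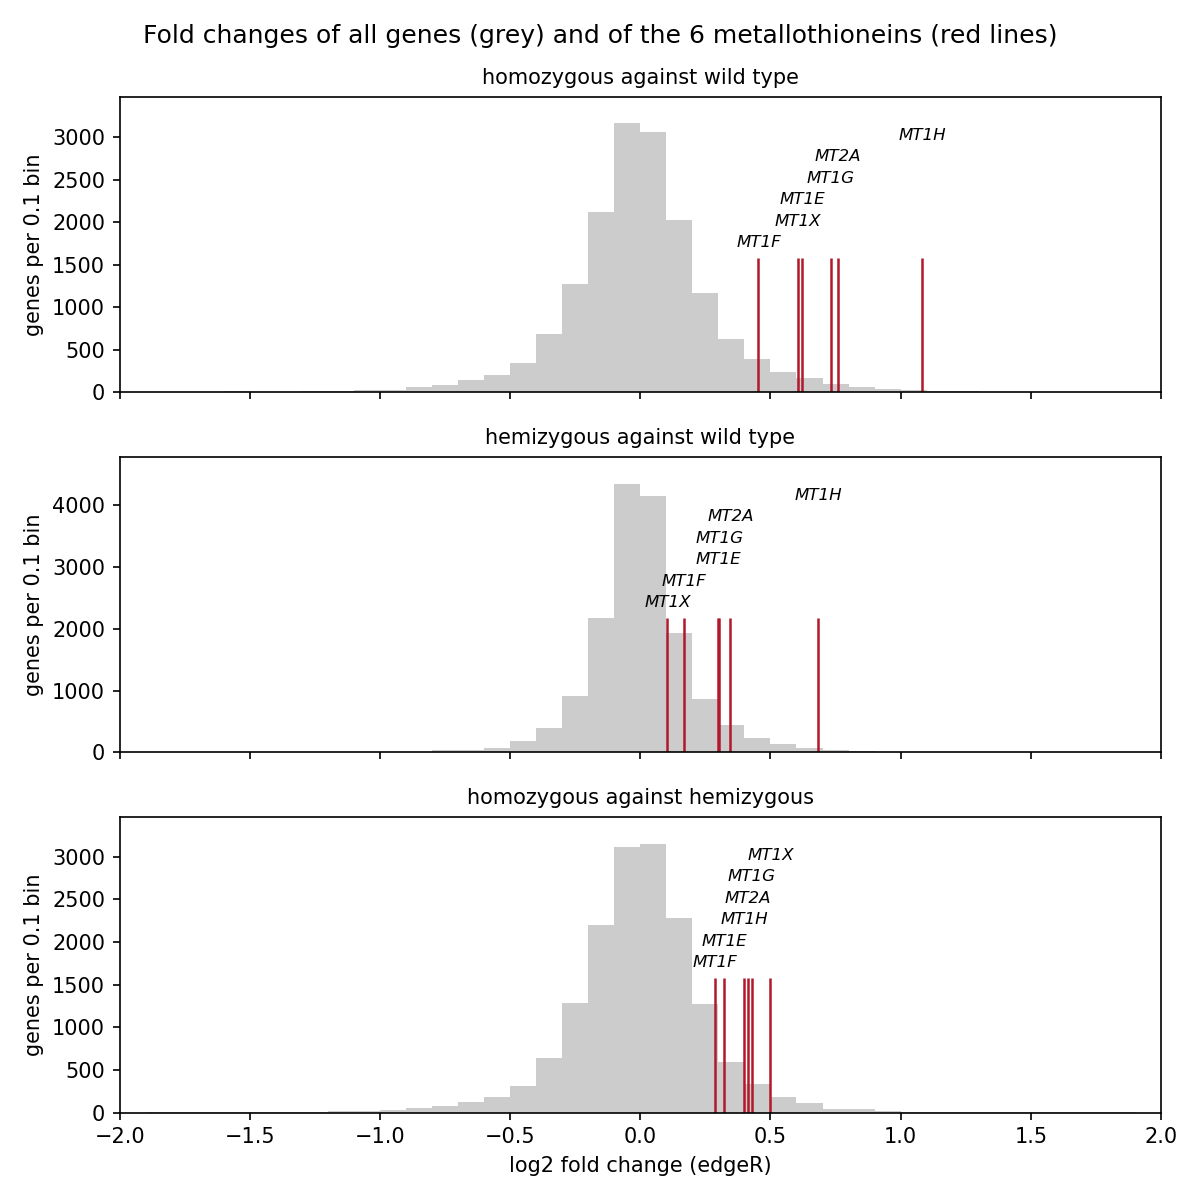
Log2 fold changes from edgeR (x axis) for all 16199 genes (grey, number of genes per bin of 0.1, y axis) and for the 6 metallothioneins (red lines with names) in the 3 comparisons. The members lie to the right of 0 in each panel, furthest in homozygous against wild-type cells, where they run from 0.45 for MT1F to 1.08 for MT1H.

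The 2 libraries of a genotype differed more for these genes than for most genes in hemizygous and wild-type cells, and less so in homozygous cells. On the log2(CPM + 0.5) scale, replicate 2 was higher in homozygous cells for 5 of 6 members, the differences ran from -0.17 for MT2A to 0.40 for MT1E, and the median was 0.25. Of all genes, 72.2% had a homozygous difference at or above that of MT2A. In hemizygous cells replicate 2 exceeded replicate 1 for 6 of 6 members, by 0.66 to 0.99 with a median of 0.84, and 6.19% of all genes were higher in replicate 2 by at least the lowest of these values. In wild-type cells it exceeded replicate 1 for 6 of 6 members, by 0.87 to 1.19 with a median of 0.96, and 2.39% of all genes were higher by at least the lowest value. The median over all genes was within 0.01 of 0 in each genotype. The labels do not say what the replicate numbers mark.

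**Figure D3:**
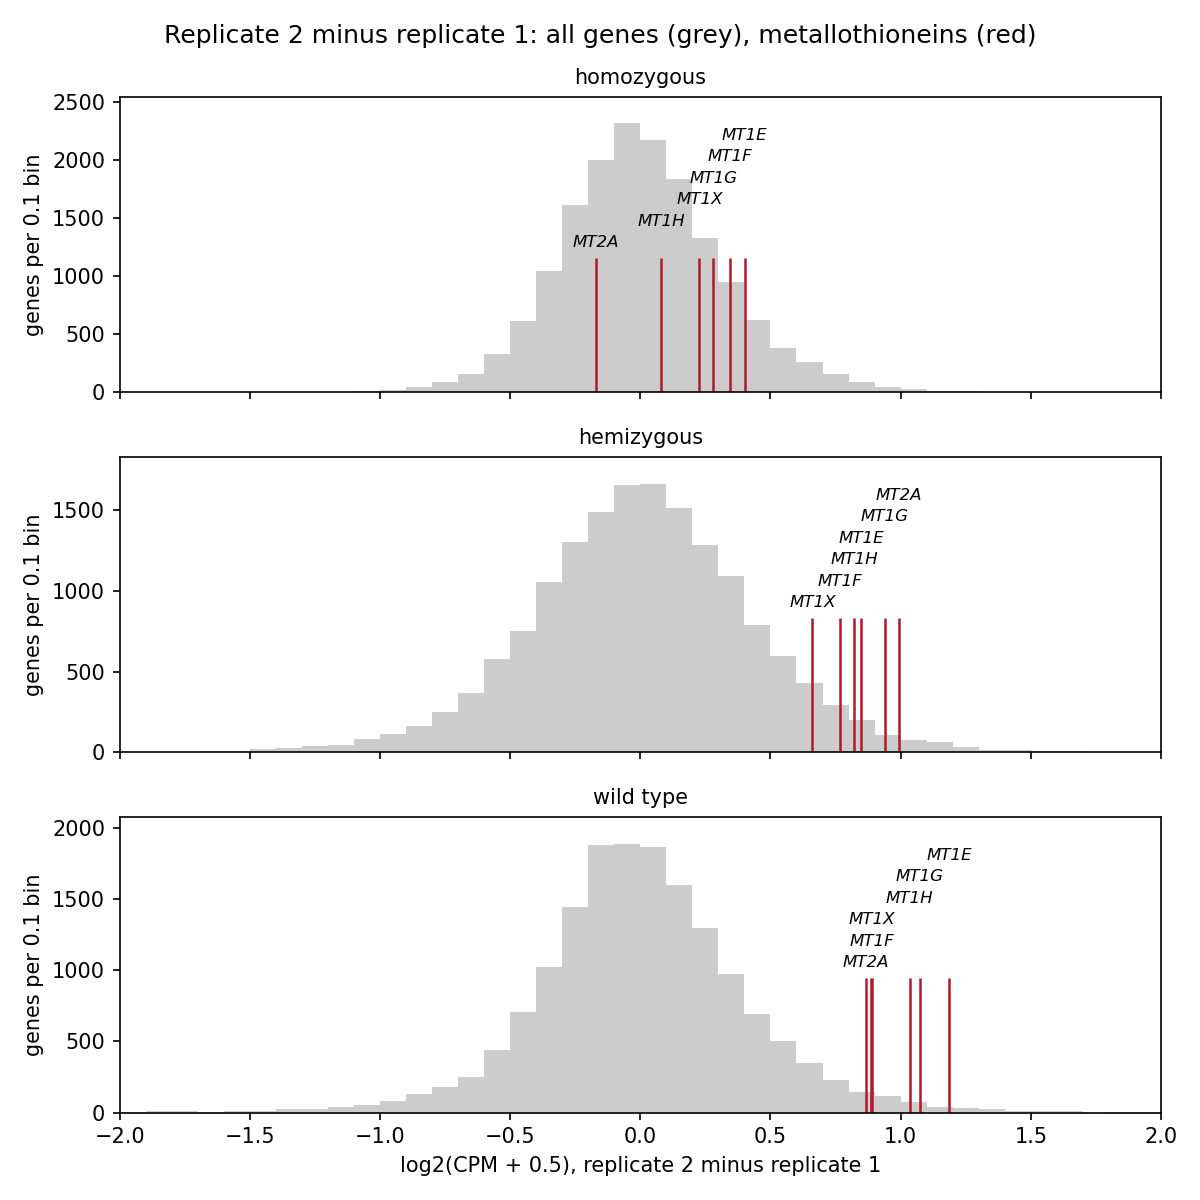
Difference between the 2 libraries of a genotype in log2(CPM + 0.5), replicate 2 minus replicate 1 (x axis), for all genes (grey, number of genes per bin of 0.1, y axis) and for the 6 metallothioneins (red lines with names). The members sit in the right tail in hemizygous cells (0.66 to 0.99) and wild-type cells (0.87 to 1.19). In homozygous cells they run from -0.17 to 0.40, with all but MT2A to the right of 0.

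Other features of the libraries moved with these levels only in part, and their part in the differences was not tested. Ribosomal protein genes, which also have short transcripts, took 5.87% and 6.81% of counts in homozygous, 4.55% and 6.48% in hemizygous, and 5.24% and 6.07% in wild-type libraries, so they too were lower in replicate 1. The 600 genes outside the family with a principal transcript of at most 800 bases, some ribosomal protein genes among them, took 4.69% and 5.82% in homozygous, 4.68% and 5.04% in hemizygous, and 4.97% and 4.82% in wild-type libraries, and wild type 1 was not low in them. The 21 mitochondrial genes together took 6.59% and 7.91% in homozygous, 7.62% and 6.79% in hemizygous, and 7.32% and 6.72% in wild-type libraries, so in hemizygous and wild-type cells they were higher in replicate 1, opposite to the metallothioneins.

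Markers of other cell types also varied between the libraries, and their part in the metallothionein levels was not tested. Of markers of liver, kidney and gut epithelium, tissues with high metallothionein levels, 2 of 7 were present (LRP2 and VIL1), and their sum was 5.86 and 4.65 CPM in homozygous, 14.7 and 5.64 CPM in hemizygous, and 10.3 and 5.04 CPM in wild-type libraries, highest where the metallothioneins were lowest. LRP2 made up most of this sum, and VIL1 did not follow it. VIL1 had 0.9908 and 1.196 CPM in hemizygous 1 and 2, and 1.099 and 1.254 CPM in wild type 1 and 2. In both of these genotypes VIL1 was thus lower in replicate 1, as the metallothioneins were. In homozygous 1 and 2 VIL1 was lowest, at 0.749 and 0.640 CPM, while the metallothionein means were highest in homozygous cells. All of these VIL1 levels are low. ALB, the liver albumin gene, was not among the genes of the table. Of definitive endoderm markers 2 of 6 were present (CXCR4 and AFP), and these summed to 2.84 and 2.31 CPM in homozygous, 6.36 and 2.09 CPM in hemizygous, and 6.19 and 1.64 CPM in wild-type libraries. The sum of the fibroblast and mesenchyme markers, 5 of 8 present, was likewise highest in hemizygous 1 and wild type 1, with 772.6 and 839.2 CPM in homozygous, 1043 and 870.4 CPM in hemizygous, and 1102 and 941.3 CPM in wild-type libraries. COL1A1, COL1A2, VIM and POSTN followed this, but THY1 did not, with 334.4 CPM in hemizygous 1 and its highest level, 468.3 CPM, in wild type 2.

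The sum of the mesoderm markers and that of the neuron markers were instead higher in all 4 edited libraries than in both wild-type libraries. Singly, only KDR, PDGFRA, DCX and GAP43 of these markers separated the libraries in this way. The share of all genes that did so was not counted. Both homozygous libraries lay above both wild-type libraries for 14.2% of all genes, and both hemizygous libraries did for 8.13%. MIXL1, MESP1, STMN2, TUBB3, ELAVL3 and MAP2 overlapped between edited and wild-type libraries. KDR made up most of the mesoderm sum, with 332.5 to 392.6 CPM in edited and 257.1 and 275.5 CPM in wild-type libraries. The 4 of 6 mesoderm markers present (MIXL1, MESP1, PDGFRA and KDR) summed to 381.2 and 364.6 CPM in homozygous, 338.4 and 397.3 CPM in hemizygous, and 261.6 and 278.3 CPM in wild-type libraries, and TBXT, the defining early mesoderm gene, was not among the genes of the table. The neuron markers, 6 of 6 present, summed to 79.95 and 85.6 CPM in homozygous, 81.9 and 82.9 CPM in hemizygous, and 67.0 and 56.9 CPM in wild-type libraries. The sum of the neural ectoderm markers, 3 of 6 present (ZIC1, FABP7 and NES), overlapped between the genotypes at 407.1 to 560.0 CPM. Most of this sum was NES, while ZIC1 and FABP7 were higher in all 4 edited libraries than in both wild-type libraries.

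Within the family, the share that MT1H took of the total was higher in both edited genotypes than in wild type, while the total itself varied within genotypes. MT1H made up 13.1% and 12% of the counts of the 6 genes in homozygous 1 and 2 (95% Wilson intervals 12.7% to 13.6% and 11.6% to 12.4%). It made up 12.7% and 12.4% in hemizygous 1 and 2 (12.1% to 13.4% and 12% to 12.8%), and 9.56% and 9.73% in wild type 1 and 2 (9.02% to 10.1% and 9.29% to 10.2%). All 4 edited libraries lay above both wild-type libraries, with a gap of 2.26 percentage points, and the shares of the 2 libraries of a genotype differed by less than this gap. The mesoderm and neuron marker sums above separated the edited from the wild-type libraries in the same way, though several of their markers singly did not. The part of these sums in this share was not tested. The intervals cover counting error only, as reads without molecular identifiers are not independent molecules.

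The mean share of MT1H was 12.6% ± 0.815 in homozygous, 12.6% ± 0.273 in hemizygous and 9.65% ± 0.123 in wild-type cells (SD, n = 2 each). The log2 ratio of MT1H to the sum of the other 5 was 0.43 higher in homozygous and 0.43 higher in hemizygous than in wild-type cells, and it differed by 0.00 between homozygous and hemizygous cells. For homozygous cells this is a description, and with 2 libraries a group an exact two-sided permutation test cannot go below 0.333 for the others. The hemizygous comparison shares the wild-type libraries that chose MT1H. MT1H shares 20.4% of its 50-base windows with MT1G or MT1HL1, and the share of MT1G was 34.8% ± 1.14 in homozygous, 33.8% ± 1.13 in hemizygous and 34.1% ± 0.874 in wild-type cells.

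MT1F and MT1X took lower shares in all 4 edited libraries than in both wild-type libraries. MT1F averaged 10.3% ± 0.666 in homozygous, 11.3% ± 0.541 in hemizygous and 12.5% ± 0.784 in wild-type cells, and MT1X averaged 10.6% ± 0.0788, 10.1% ± 1.01 and 11.6% ± 0.701 in the same groups (SD, n = 2 each). MT1E ran from 16.3% to 19.3%, MT1G from 33.0% to 35.6% and MT2A from 12.4% to 16.2% of the counts, and the genotypes overlapped in each. The half-width of the counting interval was at most 0.89 percentage points for any member. Shares of 1 sum are not independent, so a larger share of MT1H lowers the others.

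**Figure D4:**
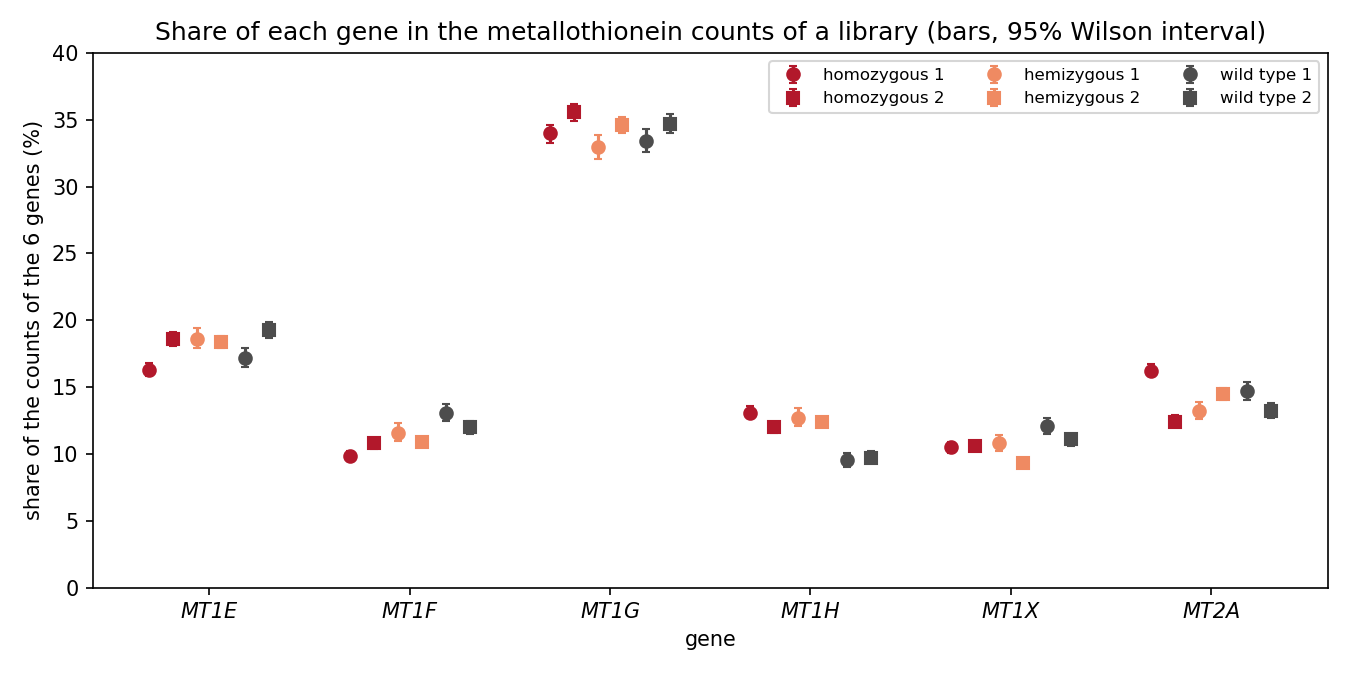
Share of each gene in the counts of the 6 metallothioneins of a library (y axis, percent, from 0) for the 6 genes (x axis). Each point is 1 library (circle, replicate 1; square, replicate 2) with its 95% Wilson interval. MT1H lies at 12% to 13.1% in the 4 edited libraries and at 9.56% and 9.73% in wild type, while MT1G holds 33.0% to 35.6% in all 6.

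Per length of the principal transcripts, MT1G had the highest level of the family in all 6 libraries. Per kilobase of its principal transcript (406 bases) MT1G averaged 444.3 ± 61.0 CPM in homozygous, 330.1 ± 147.0 in hemizygous and 267.6 ± 135.0 in wild-type cells (SD, n = 2 each). On the same scale, the mean over the 6 libraries was 121.5 for MT1H, 105.3 for MT1E, 96.1 for MT1X, 73.1 for MT2A and 66.0 for MT1F. In wild-type cells the means were 83.8 ± 46.6 for MT1E, 80.3 ± 34.4 for MT1X, 77.3 ± 38.2 for MT1H, 56.7 ± 24.2 for MT1F and 55.4 ± 23.1 for MT2A. All of them rose from wild type 1 to wild type 2, so these SDs do not measure the differences between genes. MT1E, MT1X and MT1H had 50.9, 55.9 and 50.3 in wild type 1, where MT1F and MT2A had 39.6 and 39.0. In wild type 2 the same genes had 116.8, 104.6 and 104.3, against 73.8 and 71.7. In homozygous cells MT1H followed MT1G at 163.5 ± 6.57, against 129.0 ± 25.3 for MT1E and 121.9 ± 13.7 for MT1X. The order depends on the isoform taken, since MT1E comes to 223.3 per kilobase with its shortest basic isoform of 332 bases, close to the 224.6 of MT1G with its longest of 628 bases.

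The 4 other metallothionein genes of the table had low levels, with higher means in both edited genotypes than in wild type. MT1M, a further coding member, had 11.6 and 15.7 CPM in homozygous, 5.95 and 13.8 CPM in hemizygous, and 3.68 and 10.7 CPM in wild-type libraries. MT1JP, a transcribed pseudogene, had 5.09 and 7.19 CPM in homozygous, 2.35 and 7.04 CPM in hemizygous, and 1.31 and 4.02 CPM in wild-type libraries. MT1A and MT1L were at 1.64 to 5.74 CPM and 2.53 to 8.30 CPM over all libraries. Their log2 fold changes against wild type in homozygous cells were 1.21 for MT1JP, 0.93 for MT1M, 0.68 for MT1A and 0.62 for MT1L, with a median of 0.81, and in hemizygous cells 0.84, 0.47, 0.31 and 0.12, with a median of 0.39. None of the 4 passed edgeR in any comparison. As MT1JP shares 23.7% of its 50-base windows with other genes, MT1E and MT1G among them, its counts may hold reads of the members.

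The genes next to the cluster had medians near 0. Of 10 listed neighbours 8 were measured, and their median log2 fold change was -0.05 in homozygous against wild-type cells, -0.05 in hemizygous against wild-type cells and -0.02 in homozygous against hemizygous cells. In homozygous against wild-type cells the values ran from -0.46 for HERPUD1, a stress-response gene of the endoplasmic reticulum, and -0.22 for GNAO1, a G protein subunit gene, to 0.06 for NUDT21, a 3′-end processing factor, and 0.08 for BBS2, a ciliary gene. In hemizygous against wild-type cells BBS2 was at -0.09, HERPUD1 at -0.09, NUDT21 at 0.00 and NLRC5, an immune regulator, at 0.16, and none passed edgeR in any comparison.

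**Figure D5:**
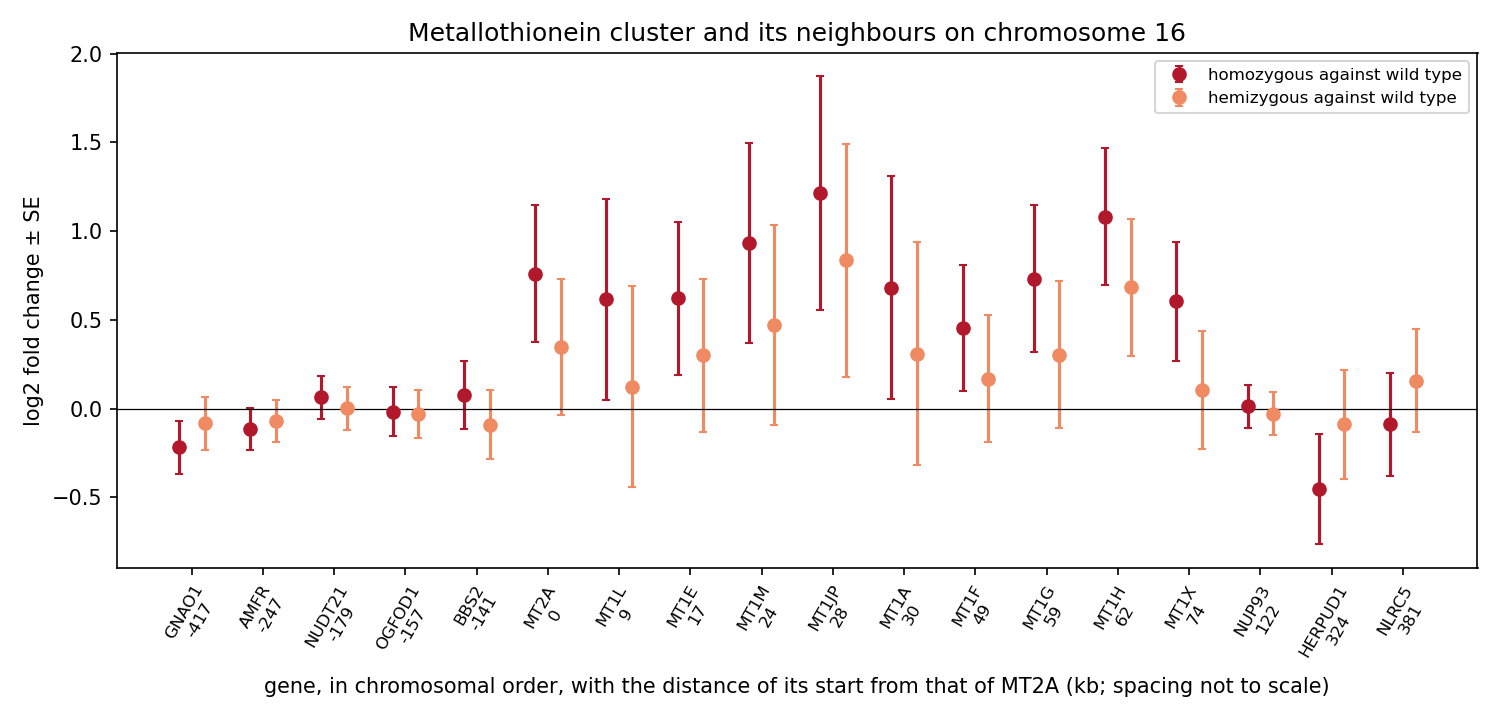
Log2 fold change ± SE from edgeR (y axis) for the 10 measured metallothionein genes and 8 neighbours in chromosomal order (x axis, with the distance of each start from that of MT2A in kb; spacing not to scale), for homozygous (dark red) and hemizygous (orange) against wild-type cells. All 10 metallothionein genes lie above 0 in both, from 0.45 to 1.21 in homozygous cells, and the neighbours lie between -0.46 and 0.16.

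Genes that sense and move zinc gave no call. MTF1, the zinc sensor of the family, had 19.3 and 13.9 CPM in homozygous, 21.6 and 14.2 CPM in hemizygous, and 17.8 and 15.5 CPM in wild-type libraries, with replicate 1 the higher in each genotype, opposite to most of the metallothioneins. SLC30A1, the zinc exporter of the plasma membrane and itself an MTF1 target, had 82.6 and 71.1 CPM in homozygous, 86.0 and 78.3 CPM in hemizygous, and 66.2 and 52.6 CPM in wild-type libraries. All 4 edited libraries were above both wild-type libraries in SLC30A1, with log2 fold changes of 0.37 ± 0.17 (SE) in homozygous cells (edgeR adjusted p = 1.00) and 0.47 ± 0.17 in hemizygous cells (edgeR adjusted p = 1.00, unadjusted p = 0.0264). Of all genes, 14.2% had both homozygous libraries above both wild-type libraries, and 8.13% had both hemizygous libraries above them. The share of genes with all 4 edited libraries above both was not counted. SLC39A10, a zinc importer that MTF1 is known to repress, had 324.7 and 206.7 CPM in homozygous, 368.6 and 224.3 CPM in hemizygous, and 322.2 and 224.8 CPM in wild-type libraries, again higher in replicate 1.

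Of 10 listed SLC30 transporters 8 were measured and 0 passed in any comparison. Their median was -0.10 in homozygous against wild-type cells (2 higher, 6 lower), with SLC30A10, a manganese exporter, at 0.30, SLC30A5 at -0.22 and SLC30A8 at -0.51. It was 0.06 in hemizygous against wild-type cells (7 higher, 1 lower), with SLC30A8 at 0.53, SLC30A10 at 0.50, SLC30A9 at 0.04 and SLC30A5 at -0.03. All 8 were lower in homozygous than in hemizygous cells (median -0.17), from -0.10 for SLC30A1 and -0.13 for SLC30A3 to -0.20 for SLC30A10 and -1.03 for SLC30A8. SLC30A8 was low, at 1.17 and 1.72 CPM in homozygous, 4.33 and 1.61 CPM in hemizygous, and 2.53 and 1.56 CPM in wild-type libraries. Its higher hemizygous mean rests on hemizygous 1, as hemizygous 2 lay between the homozygous libraries. Of 14 SLC39 importers 9 were measured and 0 passed. In homozygous against wild-type cells SLC39A1 was at 0.06, SLC39A8 at 0.02, SLC39A6 at -0.14 and SLC39A14 at -0.32 (median of 9, -0.06). In hemizygous against wild-type cells SLC39A1 was at 0.36, SLC39A8 at 0.19, SLC39A14 at -0.07 and SLC39A3 at -0.23 (median 0.04). In homozygous against hemizygous cells SLC39A3 was at 0.18, SLC39A13 at -0.03, SLC39A14 at -0.25 and SLC39A1 at -0.30 (median -0.17).

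All 11 copper-handling genes were measured and 0 passed. In homozygous against wild-type cells their median was 0.01, with COX17, the chaperone that hands copper to mitochondria, at 0.24, and the copper-exporting ATPases ATP7A at 0.21 and ATP7B at -0.48 (edgeR adjusted p = 1.00, unadjusted p = 0.0371). SLC31A2, a copper transporter of endosomes, was at 0.573 and 0.640 CPM in homozygous, 1.095 and 0.778 CPM in hemizygous, and 1.35 and 1.07 CPM in wild-type libraries (log2 fold change -1.0 in homozygous and -0.38 in hemizygous cells, edgeR adjusted p = 1.00 for both, unadjusted p = 0.0222 in homozygous cells). The median was -0.07 in hemizygous against wild-type cells, with ATP7A at 0.25, SCO1 at 0.05 and SCO2, which like SCO1 serves copper delivery to cytochrome oxidase, at -0.25. It was 0.09 in homozygous against hemizygous cells, with COX17 at 0.29, ATOX1 at 0.20, ATP7B at -0.37 and SLC31A2 at -0.62.

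Genes of other stresses known to induce metallothioneins gave no call. Of 14 NRF2-linked oxidative stress genes 13 were measured and 0 passed, with a median of -0.30 in homozygous against wild-type cells (3 higher, 10 lower), -0.03 in hemizygous against wild-type cells and -0.20 in homozygous against hemizygous cells. SLC7A11, the cystine importer, had 16.5 and 16.2 CPM in homozygous, 58.5 and 16.5 CPM in hemizygous, and 56.7 and 23.3 CPM in wild-type libraries. NQO1, a quinone reductase, had 26.1 and 24.6 CPM in homozygous, 47.9 and 23.0 CPM in hemizygous, and 67.9 and 29.7 CPM in wild-type libraries. Both were highest in hemizygous 1 and wild type 1, the 2 libraries with the lowest metallothionein levels. HMOX1, the haem oxygenase that metals induce, had 14.6 and 15.8 CPM in homozygous, 16.8 and 18.1 CPM in hemizygous, and 19.5 and 20.2 CPM in wild-type libraries, with a log2 fold change of -0.39 in homozygous cells (edgeR adjusted p = 1.00, unadjusted p = 0.0319). Against wild type OSGIN1 and PRDX1 were at 0.31 and 0.14 in homozygous cells and at 0.05 and 0.05 in hemizygous cells, where HMOX1 was at -0.19 and NQO1 at -0.46. In homozygous against hemizygous cells OSGIN1 was at 0.26, TXN at 0.12, ME1 at -0.52 and SLC7A11 at -1.20.

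Heat shock genes, which cadmium and other heavy metals induce, gave medians of -0.07, -0.01 and -0.06 in homozygous against wild-type, hemizygous against wild-type and homozygous against hemizygous cells, with 9 of 12 measured and 0 passing. In homozygous against wild-type cells the chaperone genes HSPE1 and HSPH1 were at 0.13 and 0.06, HSPA8 at -0.17 and the co-chaperone BAG3 at -0.26. In hemizygous against wild-type cells HSPH1 was at 0.13, HSPD1 at 0.03, BAG3 at -0.09 and HSPB1 at -0.13. In homozygous against hemizygous cells HSPE1 was at 0.20, HSPB1 at 0.13, BAG3 at -0.17 and HSPA8 at -0.18. All 9 glucocorticoid response genes were measured and 0 passed, with medians of -0.06, 0.01 and -0.07 in the same order. NR3C1, the glucocorticoid receptor, was at -0.61, ERRFI1 at -0.35, KLF9 at 0.37 and ZBTB16 at 0.55 in homozygous against wild-type cells. KLF9 was at 0.56, ZBTB16 at 0.56, PER1 at -0.10 and ERRFI1 at -0.10 in hemizygous against wild-type cells. In homozygous against hemizygous cells PER1 was at 0.16, DUSP1 at 0.08, ERRFI1 at -0.25 and NR3C1 at -0.70.

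Across the 6 libraries the members moved together, with Pearson r of log2(CPM + 0.5) from 0.905 to 0.992 over the 15 pairs and a median of 0.957. Of 11467 other genes with a symbol and at least 5 CPM on average, those most like the mean of the 6 members included MT1M (r = 0.997), MT-RNR2, the mitochondrial 16S ribosomal RNA (0.996), WIPF3 (0.991), PLEKHB1 (0.990) and ANKRD24 (0.990). MT-RNR2 had 8683 and 9164 CPM in homozygous, 6450 and 8624 CPM in hemizygous, and 5267 and 8063 CPM in wild-type libraries, while the summed share of the 21 mitochondrial genes, given above, did not follow it. Most like MT1H alone were AUTS2 (0.994), PPP1R37 (0.993) and SNCAIP (0.992). With 6 libraries that also differ along the first principal component, 4.69% of these genes reached an r over 0.9, and the values are given as a description.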

How the data were processed

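Total RNA was made into unstranded libraries (Illumina TruSeq RNA), per the labels' protocols. Cutadapt, HISAT2 and the hg38 build are named in the submitters' processing notes. Versions, the counting program and its annotation are not given in the sources. The values the authors deposited are whole-number counts, 1 per gene and library. Each gene reached at least 0.586 CPM in 3 libraries, so genes with low counts are absent.

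Samples were grouped by the genotype in their titles. edgeR 4.0.16 in R 4.3.3 was fitted to the whole table and all 6 libraries (TMM, filterByExpr, which removed 0 genes, quasi-likelihood test, 3 residual degrees of freedom), with Benjamini-Hochberg adjustment over 16199 genes. SEs were derived from the fold change and the F statistic. On simulated data for each of the 3 comparisons the fit recovered 100% of 200 genes changed by 2 on the log2 scale. The simulation gave every gene the same spread, not that of the members. It checks that the fit runs as intended and does not show its power for the members' smaller changes. DESeq2 1.42.0, limma 3.58.1 (voom), other scalings and filters, a replicate block and leaving out each library were alternatives. No library is a copy of another (chi-square per degree of freedom of 11.5 to 97.4 between pairs).

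Gene positions and transcripts came from GENCODE release 29 (GRCh38, the build of the authors' alignment) and promoters from RefSeq (GRCh38.p14). Levels per kilobase used the GENCODE principal transcript. Coding sequences were aligned with Biopython 1.88. Figures were drawn with matplotlib 3.10.9 in Python 3.11.15.

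The members and lists were chosen with earlier results of these data known. Named genes were the 6 members, MTF1, SLC30A1, SLC39A10, up to 2 genes with the highest and 2 with the lowest fold change of each list, and the genes most alike across libraries (6 for the members, of which 1 is not reported here, and 3 for MT1H). NQO1, SLC7A11 and SLC30A8 are given by library, and ATP7B, HMOX1 and SLC31A2 singled out, after their values were seen.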

Additional observations from a re-analysis of the deposited data

How the results depend on the processing

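No member passed the threshold in any alternative in which it was tested. The members' direction against wild type held in homozygous cells in every alternative run. In hemizygous cells it turned in single-library omissions: without hemizygous 2 the log2 fold changes were -0.19 for MT1E, -0.27 for MT1F, -0.24 for MT1G, -0.27 for MT1X and -0.24 for MT2A, and without wild type 1 they were -0.17, -0.21, -0.13, -0.27 and -0.02. In homozygous against hemizygous cells MT1E and MT1F were at -0.038 and -0.045 without hemizygous 1, and at most at 0.81 and 0.73 in any omission. In hemizygous against wild-type cells the highest values in any omission were 1.03 for MT1E, 0.70 for MT1F, 0.95 for MT1G, 0.635 for MT1X and 0.86 for MT2A. With libraries left out, the members' median ran from 0.26 to 1.32 in homozygous against wild-type cells, from -0.24 to 0.91 in hemizygous against wild-type cells and from 0.018 to 0.87 in homozygous against hemizygous cells.

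The count of all genes called was 0 in the 3 comparisons. DESeq2 called 10, 7 and 10 in homozygous against wild-type, hemizygous against wild-type and homozygous against hemizygous cells, and the omissions gave 0 to 1, 0 to 2 and 0 to 3. The filter on a mean of 5 CPM called 1 gene, ASMTL, in homozygous against hemizygous cells. No metallothionein was among these genes.

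Samples with the same replicate number deviated together (correlations of deviations 0.769 for hemizygous and wild type, 0.506 for homozygous and hemizygous, 0.38 for homozygous and wild type), but each comparison has only 2 such pairs and the labels do not say what the number marks. With the replicate number as a block edgeR called 0, 1 and 1 genes in the 3 comparisons (ASMTL in both of the last), and the members' medians were 0.78, 0.33 and 0.50, with a lowest member adjusted p of 0.329, 0.999 and 0.573 among those tested.

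Scaling by total counts only kept 2 of the 6 genes most like the members. With all 10 metallothionein rows in the sum, an alternative chosen after the data were seen, the mean share of MT1H was 11.9% in homozygous, 11.9% in hemizygous and 9.18% in wild-type cells. The spread between 2 libraries, not depth, limits these comparisons: the members had at least 1035 counts in every library.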
